A study of Mus musculus with 20 samples.

Results

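The 10 genes described here act in muscle protein breakdown, in FOXO signalling and in autophagy, and were picked out of the deposited gene counts by symbol. All 10 were found among 21844 genes, and all 10 passed the filter on low counts together with 14305 genes in all. Fbxo32 and Trim63 encode the muscle ubiquitin ligases atrogin-1 and MuRF1. Foxo1 and Foxo3 encode transcription factors. Ulk1, Map1lc3a, Gabarapl1, Sqstm1 and Bnip3 encode proteins that start, build or load autophagosomes, and Ctsl encodes the lysosomal protease cathepsin L.

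FOXO factors are held outside the nucleus when insulin and AKT signalling are active. When that signal falls, as in fasting, denervation or glucocorticoid excess, they enter the nucleus and switch on Fbxo32, Trim63 and several autophagy genes, so that the proteasome and the lysosome both take up protein and organelles for degradation. BMAL1 is the core clock activator that, with CLOCK, binds E-box sequences, and it is the protein the study set out to remove from muscle.

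RNA was sequenced in 20 libraries of mouse hindlimb muscle, 5 in each of 4 groups. Every library carried the genotype Cre+:iMSBmal1 fl/fl, that is, a floxed Bmal1 gene together with a Cre transgene whose promoter the labels do not name. Mice labelled Vehicle served as controls, and those labelled iMSBmal1KO are given as knockouts of Bmal1 in muscle only. Each kind was kept sedentary or trained daily on a treadmill for 6 weeks, and the muscles were taken 47 hours after the last bout by the design text and 48 hours by the sample labels. The tissue is named gastrocnemius in the source field and tibialis anterior in another. The age, sex and inducing agent are not given in the sources used here, nor whether each library was a separate animal, so p-values measure only the spread between these libraries.

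Libraries held between 10610333 and 19153527 counts, and the 10 genes had from 308 to 13462 counts in each library, vehicle-trained library 2 aside. That library stood far from the rest of its group and is described on its own at the end. Knockout-trained libraries 1 and 4 differed at high counts by 1.25 times the noise they showed at low counts, and libraries 3 and 5 by 0.873 times, where the lowest ratio of any other pair was 2.31. Each pair was counted as 1 sample, which left n = 3 in that group and 17 samples in all. By the same ratio libraries 1 and 4 lay at 11.3 to 13.8 from knockout-trained libraries 2, 3 and 5. From knockout-sedentary library 4 they lay at 3.1 and 2.93. Vehicle-trained library 1 lay at 6.85 to 9.61 from vehicle-trained libraries 3, 4 and 5, and at 4.93 to 6.25 from knockout-trained libraries 2, 3 and 5. What these ratios mean for the comparisons that use trained muscle was not tested. The gene-level count of Bmal1, listed as Arntl, showed no loss under the knockout label. It lay at 6.72 ± 0.736 (SD, n = 5) TMM-scaled CPM, counts scaled to a common library size, in vehicle-sedentary samples and at 12.6 ± 3.03 (SD, n = 5) in knockout-sedentary samples. In trained muscle it lay at 6.51 ± 0.447 (SD, n = 4) and 11.3 ± 3.81 (SD, n = 3). These counts are per gene and do not show which exons were read or how much protein was left. Directions below are therefore drawn from the labels. The 10 muscle fibre markers summed to between 75140 and 106800 in these samples, so the tissue was muscle by its defining genes.

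Promoter sequences frame the family, because FOXO factors and BMAL1 each read a known short motif. RefSeq promoters of build GRCm38.p6, from 250 bases before to 50 bases after the gene start, were matched for 8 of the 10 genes. They were searched on both strands for the FOXO motif GTAAACA, its variant ATAAACA and the E-box CACGTG, which do not overlap one another in these 8 windows. A match describes the letters and does not show binding. The following 4 held a match, printed on the gene's own strand with the match in capitals. The Trim63 promoter, at chr4:134314870-134315169 on the plus strand, holds GTAAACA on the strand opposite to the gene, between 194 and 188 bases before the start.
Trim63: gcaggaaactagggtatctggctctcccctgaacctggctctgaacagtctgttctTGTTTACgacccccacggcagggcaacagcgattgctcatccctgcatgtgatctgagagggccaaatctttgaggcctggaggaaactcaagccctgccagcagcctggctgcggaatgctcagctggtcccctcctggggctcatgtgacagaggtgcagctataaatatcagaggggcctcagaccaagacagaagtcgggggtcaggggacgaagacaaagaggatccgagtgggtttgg
The Gabarapl1 promoter, at chr6:129532942-129533241 on the plus strand, holds ATAAACA between 95 and 89 bases before the start.
Gabarapl1: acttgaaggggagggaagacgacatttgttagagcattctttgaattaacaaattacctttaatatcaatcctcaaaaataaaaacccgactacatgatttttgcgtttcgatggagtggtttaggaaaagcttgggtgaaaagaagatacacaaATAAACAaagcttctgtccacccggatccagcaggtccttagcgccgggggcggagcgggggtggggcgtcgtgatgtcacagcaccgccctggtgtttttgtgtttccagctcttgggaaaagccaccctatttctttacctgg
The Bnip3 promoter, at chr7:138909457-138909756 on the minus strand, holds the E-box between 108 and 103 bases before the start.
Bnip3: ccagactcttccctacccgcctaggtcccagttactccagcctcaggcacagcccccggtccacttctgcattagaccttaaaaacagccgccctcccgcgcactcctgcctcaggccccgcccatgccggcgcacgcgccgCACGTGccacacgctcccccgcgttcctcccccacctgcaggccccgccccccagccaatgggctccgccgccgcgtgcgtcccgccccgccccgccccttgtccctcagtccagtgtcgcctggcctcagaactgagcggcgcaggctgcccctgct
The Ctsl promoter, at chr13:64370471-64370770 on the minus strand, holds the E-box between 236 and 231 bases before the start.
Ctsl: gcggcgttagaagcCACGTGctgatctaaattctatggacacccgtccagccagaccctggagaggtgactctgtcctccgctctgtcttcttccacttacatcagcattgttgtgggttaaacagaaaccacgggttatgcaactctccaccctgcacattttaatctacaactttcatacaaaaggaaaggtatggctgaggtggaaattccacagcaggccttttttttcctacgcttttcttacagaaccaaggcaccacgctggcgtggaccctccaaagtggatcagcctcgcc
Over 32851 RefSeq promoters of this length, GTAAACA occurred in 3.65%, ATAAACA in 4.6% and CACGTG in 7.15%. The windows of Foxo1, Foxo3, Ulk1 and Sqstm1 held none of the 3 motifs. Fbxo32 and Map1lc3a had no entry.

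Among the 10 genes, Foxo1 was lower in muscle labelled knockout, both sedentary and trained, and Map1lc3a was higher in trained than in sedentary muscle labelled knockout. No other gene passed the test in any comparison. The test was edgeR's quasi-likelihood test, two-sided, with Benjamini-Hochberg adjustment over all 14305 genes and a threshold of 0.05. In the sedentary knockout comparison 1 of the 10 genes was called, against 6.97% of all genes, and lower calls alone made up 3.83%. In the trained knockout comparison 1 of 10 was called, against 8.7% of all genes and 3.68% for lower calls. In the training comparison of knockout muscle 1 of 10 was called, against 0.853% of all genes and 0.706% for higher calls. That last background rests on single samples, since with 1 sample left out edgeR called from 0 to 1760 genes, or up to 12.3%. A share of 1 in 10 lies near the background in the first 2 of these. In the training comparison of vehicle muscle 0 of the 10 were called, and 0.0% of all genes. At an unadjusted p under 0.05 there was 1, and DESeq2 and limma called 0. The interaction, which asks whether the training difference depended on the knockout label, called 0 of 10 and 0.0% of all genes, with 0 of the 10 at an unadjusted p under 0.05 and 0 by DESeq2 and by limma. Median log2 differences of the 10 genes were 0.09 and -0.02 for the knockout label in sedentary and trained muscle and -0.03 and -0.09 for training in vehicle and knockout muscle. Over all genes the 4 medians lay between -0.01 and 0.02.

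**Figure D1:**
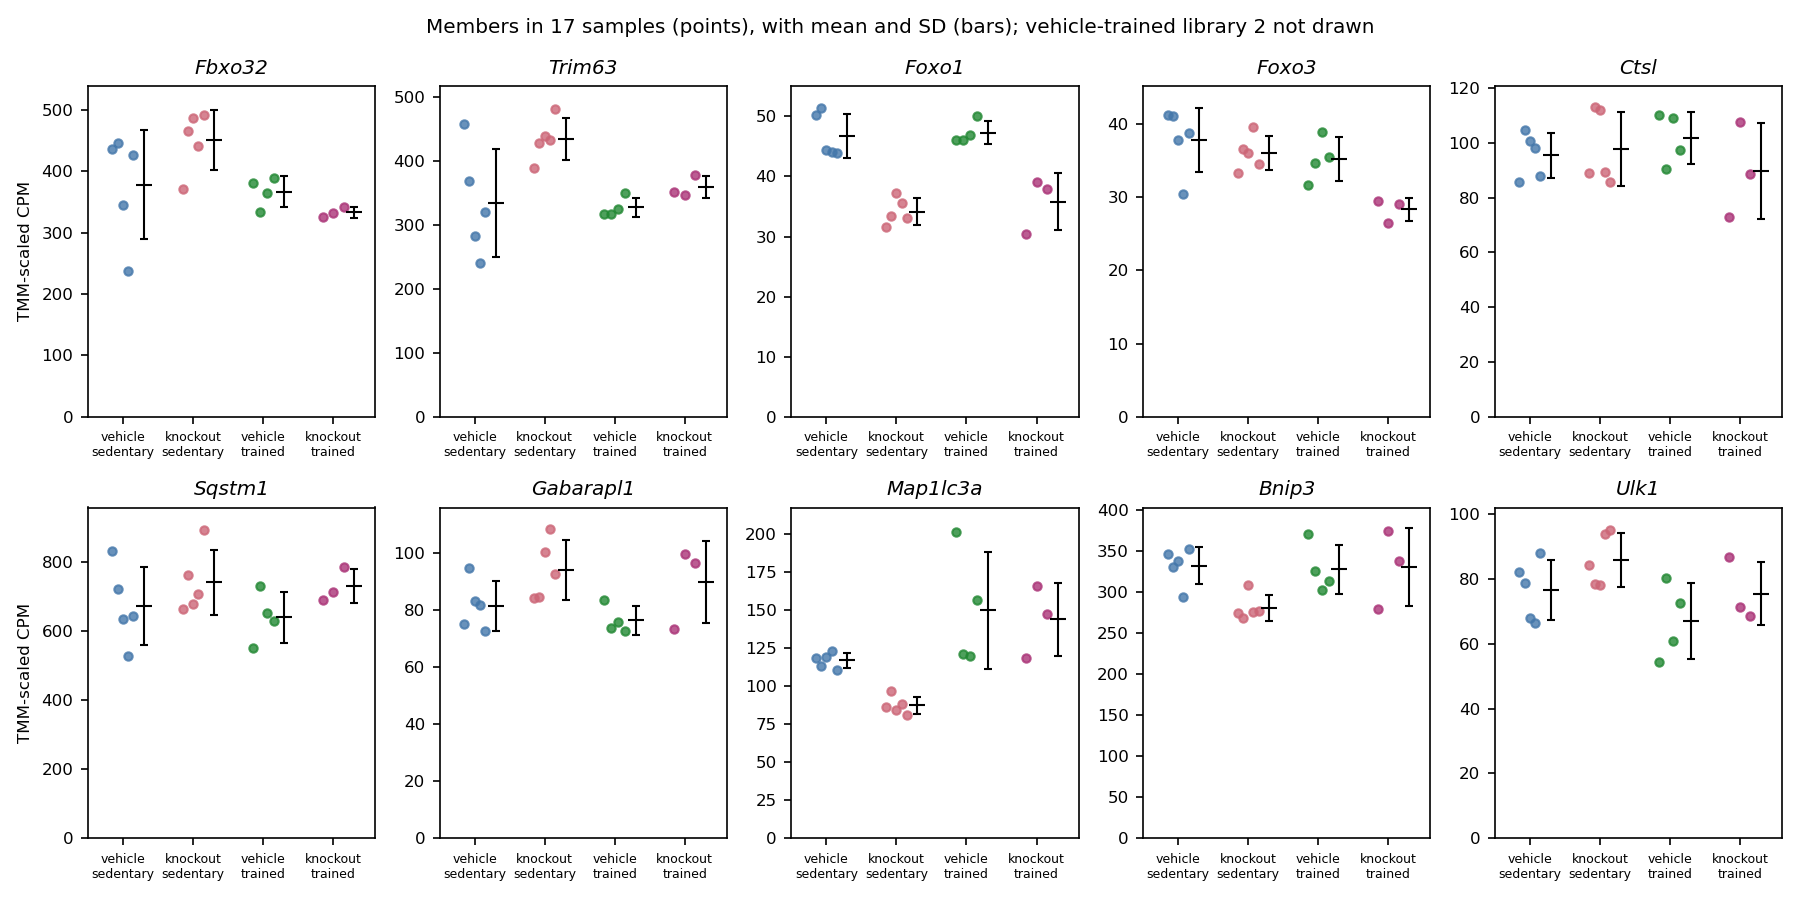
TMM-scaled CPM (vertical axis, from 0) of the 10 genes in the 4 groups, with 1 point per sample and the mean and SD as bars, and without vehicle-trained library 2. Foxo1 shows the knockout-labelled samples at 39.1 or lower and the vehicle samples at 43.9 or higher.

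Per kilobase of exon, Sqstm1 was the most abundant of the 10 at group means of 190.7 to 220.6 scaled CPM per kilobase. Bnip3 and Trim63 followed at 123.9 to 146.7 and 115.0 to 152.5, and Map1lc3a at 73.9 to 126.8. Fbxo32 lay at 47.8 to 64.8 and Gabarapl1 at 37.9 to 46.6. Ctsl and Ulk1 were lower, at 13.8 to 15.7 and 10.3 to 13.2. The transcription factors were the least abundant, Foxo1 at 3.94 to 5.46 and Foxo3 at 3.74 to 5.00. Length here counts all annotated exons of a gene, 6489 bases for Ctsl. A gene whose expressed transcript is shorter than that reads too low, so the order holds for this length only. Levels below are TMM-scaled CPM, not divided by length, and compare samples of 1 gene only.

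Trim63, the MuRF1 ligase that marks thick-filament proteins for the proteasome, had its highest group mean in knockout-sedentary muscle. Vehicle-sedentary libraries 1 to 5 held 457.3, 368.0, 282.9, 240.0 and 320.5 TMM-scaled CPM. Knockout-sedentary libraries 1 to 5 held 388.6, 428.2, 438.6, 431.7 and 479.9. Vehicle-sedentary library 1 lay inside the knockout range and the other 4 lay below it. The log2 difference was 0.38 (SE 0.127) and did not pass the test (edgeR adjusted p = 0.0871). Without vehicle-sedentary library 1 the difference was 0.52 and passed it (adjusted p = 0.00536). DESeq2 called it as well (adjusted p = 0.0459). The trained samples lay at 317.3, 316.1, 325.1 and 349.1 in vehicle libraries 1, 3, 4 and 5 and at 350.9, 345.9 and 377.7 in the knockout-labelled samples. Those groups overlapped by the 1 pair of 349.1 and 345.9, and the log2 difference was 0.14 (adjusted p = 0.657). All 3 trained knockout samples were below all 5 sedentary ones, at a log2 difference of -0.27 (SE 0.148, adjusted p = 0.369). In order of group means Trim63 ran from knockout sedentary (433.4) through knockout trained (358.2) and vehicle sedentary (333.8) to vehicle trained (326.9). The neighbours that were tested did not pass, and the knockout-trained values lay inside the vehicle-sedentary range.

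Fbxo32, which encodes the F-box protein atrogin-1, was at 437.0, 446.7, 345.0, 237.4 and 427.1 scaled CPM in vehicle-sedentary libraries 1 to 5. Knockout-sedentary libraries held 372.1, 466.0, 486.6, 441.8 and 492.0. Trained muscle held 381.0, 333.1, 364.5 and 389.2 in vehicle libraries 1, 3, 4 and 5 and 325.2, 332.7 and 342.8 in the knockout-labelled samples. The spread was widest in vehicle-sedentary muscle, where library 4 was lowest for Fbxo32 and for Trim63. The 3 trained knockout samples lay below all 5 sedentary knockout samples, at a log2 difference of -0.43 (SE 0.161) that did not pass the test (edgeR adjusted p = 0.167). Over 26 alternative analyses its adjusted p stayed between 0.051 and 0.949. The knockout label differed by 0.26 in sedentary muscle (adjusted p = 0.354) and -0.13 in trained muscle (adjusted p = 0.697). Group means ran from knockout sedentary (451.7) through vehicle sedentary (378.6) and vehicle trained (367.0) to knockout trained (333.6), with no neighbours past the test.

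Foxo1, the FOXO factor that drives the ligases when insulin signalling falls, was lower in muscle labelled knockout. Vehicle-sedentary libraries 1 to 5 held 50.2, 51.4, 44.4, 44.1 and 43.9 TMM-scaled CPM. Knockout-sedentary libraries held 31.6, 33.4, 37.2, 35.5 and 33.1. Every knockout-labelled value was below every vehicle value. The means were 46.8 ± 3.68 (SD, n = 5) and 34.2 ± 2.20 (SD, n = 5), a log2 difference of -0.45 (SE 0.0823) or 0.733 of the vehicle level (edgeR adjusted p = 0.00132). Trained vehicle libraries 1, 3, 4 and 5 held 46.09, 46.14, 46.88 and 50.11, and the trained knockout samples held 30.45, 39.11 and 37.88. These groups did not overlap either. The log2 difference was -0.40 (SE 0.0996, adjusted p = 0.0173). It did not pass without vehicle-trained library 5 (-0.37, adjusted p = 0.0504), without the joined knockout-trained libraries 1 and 4 (-0.29, adjusted p = 0.0713) or when only these 2 groups were fitted (adjusted p = 0.110). With vehicle-trained library 2 in the fit neither Foxo1 call was made (adjusted p = 0.955 sedentary, 0.141 trained). Training made a log2 difference of 0.02 in vehicle muscle (adjusted p = 0.917) and 0.08 in knockout muscle (adjusted p = 0.757). The order of group means was vehicle trained, vehicle sedentary, knockout trained and knockout sedentary, and no vehicle sample of either kind lay below a knockout-labelled one. In bulk muscle, fewer cells that express a gene and less of its RNA per cell cannot be told apart. The summed ranges of all 9 cell type marker lists overlapped between the groups in both knockout comparisons. Satellite cell markers, 3 of 5 tested, overlapped only narrowly. Their sums were 21.85 to 30.11 in vehicle and 29.0 to 34.85 in knockout sedentary muscle, and 17.01 to 23.09 and 22.74 to 29.88 in trained muscle. The part of cell content in the Foxo1 difference was not tested.

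Foxo3, the second FOXO factor of the ligase and autophagy programmes, was lowest in the trained muscle labelled knockout. Those 3 samples held 29.46, 26.46 and 28.98 TMM-scaled CPM. Vehicle-trained libraries 1, 3, 4 and 5 held 31.66, 34.56, 38.89 and 35.46, and knockout-sedentary libraries held 33.26, 36.48, 36.01, 39.48 and 34.52. The trained knockout samples lay below all samples of both groups. Neither difference passed the test, with log2 -0.31 (SE 0.107, edgeR adjusted p = 0.0853) against vehicle-trained and -0.33 (SE 0.103, adjusted p = 0.0983) against knockout-sedentary muscle. The first passed when vehicle-sedentary library 4, which is in neither group, was left out (adjusted p = 0.0396). Vehicle-sedentary libraries 1 to 5 held 41.12, 41.01, 37.81, 30.43 and 38.72, overlapping the other sedentary group, with a log2 difference of -0.07 (adjusted p = 0.783). Group means ran from vehicle sedentary (37.8 ± 4.37, SD, n = 5) through knockout sedentary (35.95) and vehicle trained (35.1), which all overlapped, to knockout trained (28.3 ± 1.61, SD, n = 3).

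Non-overlapping groups were counted as a second description. In the sedentary knockout comparison they were Foxo1 and Map1lc3a, 2 of 10 against 8.75% of all genes. In the trained knockout comparison they were Foxo1 and Foxo3, 2 of 10 against 15.8%. Training in vehicle muscle gave 0 of 10 against 3.36%. Training in knockout muscle gave 4 of 10 against 8.73%, namely Fbxo32, Trim63 and Foxo3, all lower in the trained samples, and Map1lc3a, which was higher. Of these 4, Map1lc3a alone passed the test.

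Map1lc3a encodes LC3A, a ubiquitin-like protein that is attached to lipid on the growing autophagosome membrane. Vehicle-sedentary libraries 1 to 5 held 118.7, 113.2, 119.3, 123.0 and 110.6 TMM-scaled CPM. Knockout-sedentary libraries held 86.41, 96.55, 84.33, 88.35 and 80.97, and the trained knockout samples held 118.4, 166.0 and 147.6. The knockout-sedentary group was below every sample of the other 3 groups. Training in knockout muscle went with a rise from 87.3 ± 5.84 (SD, n = 5) to 144.0 ± 24.0 (SD, n = 3), a log2 difference of 0.73 (SE 0.142) or 1.66-fold (edgeR adjusted p = 0.0296). This call was lost in 9 of 26 alternatives, among them the fit with vehicle-trained library 2 (adjusted p = 0.400) and that of only the 2 groups (0.0963). Among removals of single samples these were vehicle-sedentary library 3 (adjusted p = 0.0511), knockout-sedentary libraries 1 (0.0668), 2 (0.0750), 3 (0.0659) and 5 (0.0600), knockout-trained library 2 (0.244) and the joined libraries 3 and 5 (0.268). The sum of the adipocyte markers, 7 of 7 tested, was higher in the trained samples of this comparison. It lay at 371.8 to 779.9 scaled CPM in the trained and 307.7 to 363.6 in the sedentary knockout samples, with no marker at 0 there. Lep had means of 6.04 and 5.99, and the means of the others were higher in the trained samples. Vehicle-sedentary sums ran from 234.0 to 457.9. The part of these markers in the Map1lc3a difference was not tested.

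Vehicle-trained libraries 1, 3, 4 and 5 held 201.0, 121.3, 119.9 and 156.7 scaled CPM of Map1lc3a, a wide range that overlapped the vehicle-sedentary samples. The training difference in vehicle muscle was 0.36 (SE 0.132) on the log2 scale and did not pass the test (edgeR adjusted p = 0.358). The interaction was 0.36 (SE 0.195, adjusted p = 0.4932), so the training difference was not shown to depend on the knockout label. The knockout label went with a log2 difference of -0.42 (SE 0.125) in sedentary muscle, with no overlap and an adjusted p of 0.0527. That value passed the threshold in 10 of 26 alternatives, among them leaving out vehicle-trained library 1 (adjusted p = 0.0105), 3 (0.0331) or 4 (0.0408) and knockout-trained library 2 (0.0373) or libraries 1 and 4 (0.0308). In trained muscle the difference was -0.05 (adjusted p = 0.884). Group means ran from vehicle trained (149.7 ± 38.2, SD, n = 4) through knockout trained and vehicle sedentary (116.9 ± 5.00, SD, n = 5) to knockout sedentary, and each of the first 3 groups overlapped its neighbour.

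Bnip3, a mitochondrial receptor that hands mitochondria to autophagosomes, also had its lowest group mean in knockout-sedentary muscle. Knockout-sedentary libraries held 274.1, 268.5, 308.9, 275.1 and 276.4 TMM-scaled CPM, and vehicle-sedentary libraries held 346.1, 330.6, 338.0, 293.9 and 352.5. The groups overlapped through vehicle library 4 and knockout library 3. The log2 difference was -0.24 (SE 0.0903, edgeR adjusted p = 0.145). Trained means were 327.6 ± 29.9 (SD, n = 4) in vehicle and 330.4 ± 47.7 (SD, n = 3) in knockout muscle, and training differed by 0.24 in knockout muscle (SE 0.104, adjusted p = 0.224). Without the joined knockout-trained libraries 1 and 4 the latter became 0.36 and passed the test (adjusted p = 0.0292).

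Gabarapl1, a relative of LC3 that closes and matures autophagosomes, had means of 93.9 ± 10.5 (SD, n = 5) and 89.8 ± 14.4 (SD, n = 3) scaled CPM in sedentary and trained knockout muscle. Vehicle means were 81.35 ± 8.69 (SD, n = 5) and 76.25 ± 5.05 (SD, n = 4). The knockout label differed by 0.21 in sedentary (edgeR adjusted p = 0.291) and 0.24 in trained muscle (adjusted p = 0.258). The Gabarapl1 groups overlapped in each of the 4 comparisons, while all vehicle-trained samples lay below all knockout-sedentary ones. Ulk1, the kinase that starts autophagy, ran from 85.9 ± 8.26 (SD, n = 5) in knockout sedentary through 76.6 ± 9.26 (SD, n = 5) in vehicle sedentary and 75.5 ± 9.76 (SD, n = 3) in knockout trained to 67.0 ± 11.6 (SD, n = 4) in vehicle trained muscle. Its training differences were -0.19 in vehicle (adjusted p = 0.488) and -0.18 in knockout muscle (adjusted p = 0.512).

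Sqstm1 encodes p62, the receptor that binds ubiquitin-marked cargo and is itself degraded with it. Its means were 740.4 ± 93.2 (SD, n = 5) and 728.9 ± 49.1 (SD, n = 3) scaled CPM in sedentary and trained knockout muscle and 671.8 ± 112.8 (SD, n = 5) and 639.9 ± 73.8 (SD, n = 4) in vehicle muscle. Neither knockout comparison passed the test (edgeR adjusted p = 0.611 and 0.462). Ctsl, the lysosomal protease, had group means from 89.6 ± 17.4 (SD, n = 3) in knockout-trained to 101.7 ± 9.51 (SD, n = 4) in vehicle-trained muscle. Its differences in the 4 comparisons lay between -0.18 and 0.10 on the log2 scale, and its groups overlapped in each. At these depths the SE of a log2 difference was 0.0823 to 0.166 for the 10 genes, which limits the size of difference these samples can show.

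**Figure D2:**
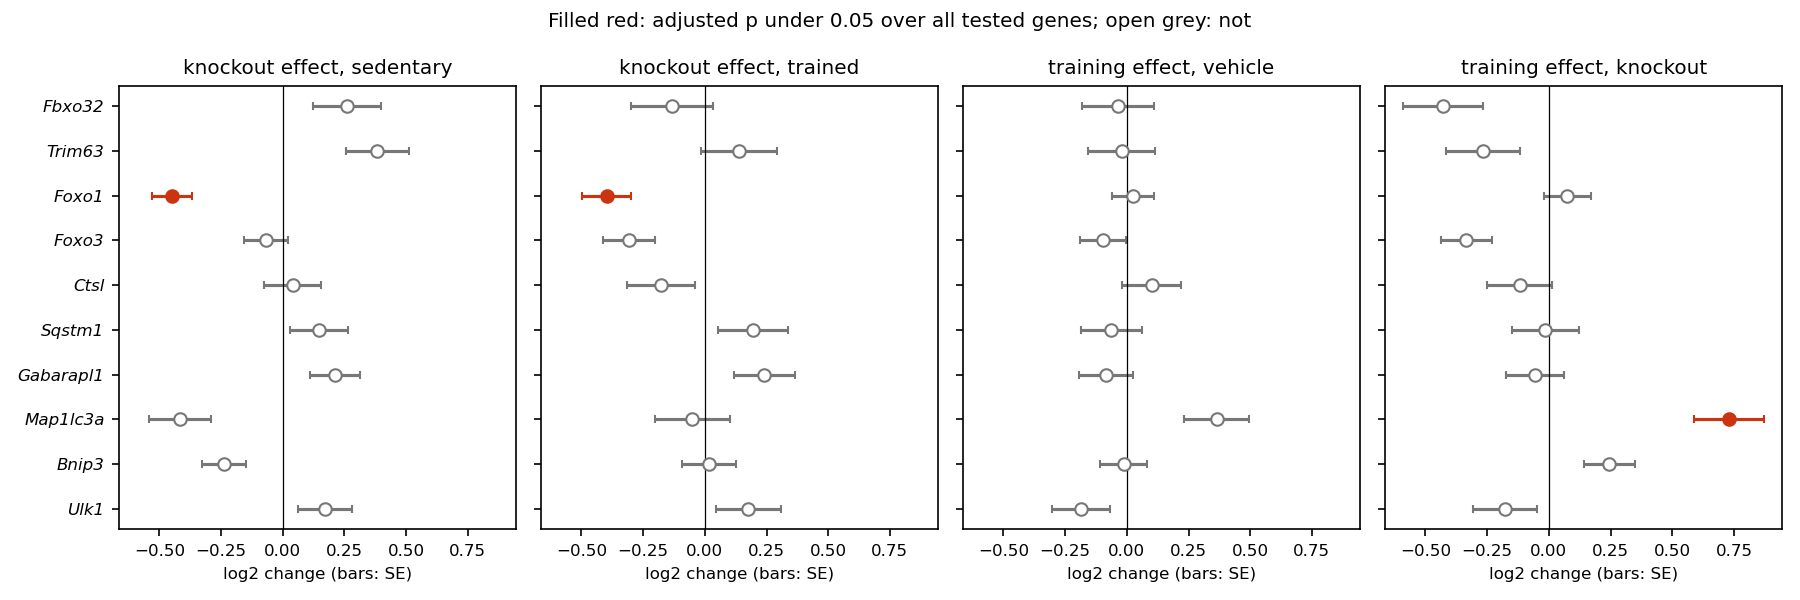
Log2 difference with its SE (horizontal axis) of each of the 10 genes in the 4 comparisons, filled red where the edgeR adjusted p is under 0.05. Foxo1 is filled at -0.45 and -0.40 under the knockout label and Map1lc3a at 0.73 for training in knockout muscle.

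Across the 17 samples, where differences between the groups enter every correlation, some of the 10 genes varied together. Pearson's r of log2(CPM + 1) was 0.82 between Trim63 and Fbxo32, 0.79 between Sqstm1 and Trim63, and 0.72 between Bnip3 and Map1lc3a. Ulk1 and Map1lc3a ran opposite, at -0.74, and Foxo1 and Fbxo32 had r = -0.12. Among genes outside the lists, the closest profiles to Fbxo32 were Zfp251 (0.877), Arid4b (0.812) and Zfp282 (0.799), and to Trim63 they were Gm5555 (0.867), Golph3l (0.855) and Zfp282 (0.848). For Foxo1 they were 1700001O22Rik, Mlf1 and Nrep at 0.954 to 0.956, and for Map1lc3a they were Rp9 (0.939), Ube2r2 (0.925) and Mpc2 (0.923). These values describe the 17 samples and carry no test.

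The wider pathways were read through 6 lists with 126 genes, of which 125 were tested. The knockout label went with 9 higher and 3 lower genes in sedentary muscle and 7 higher and 3 lower in trained muscle. Training in knockout muscle went with 0 higher and 2 lower. These are 9.6%, 8.0% and 1.6% of the 125 genes, near the 6.97%, 8.7% and 0.853% of all genes. In vehicle muscle edgeR called 0 for training, with 13 at an unadjusted p under 0.05 and 0 by DESeq2 and by limma, and the interaction gave the same 3 counts. Of these 24 calls, 5 remained when vehicle-trained library 2 was put into the fit, among them Asb2 in sedentary muscle and Mstn, Stub1 and Tsc22d3 under the knockout label in trained muscle.

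Among 18 other ubiquitin ligases and their partners, 3 were higher and 2 lower in sedentary muscle labelled knockout, where 6.97% of all genes were called. Asb2, a substrate adaptor of cullin ligases in muscle, went from 606.4 ± 98.8 (SD, n = 5) in vehicle to 894.2 ± 112.4 (SD, n = 5) scaled CPM in knockout muscle, a log2 difference of 0.57 (edgeR adjusted p = 0.00294). Fbxo30, a FOXO-dependent ligase of atrophying muscle, was higher by 0.48 (adjusted p = 0.00173), and Fbxo40, a muscle ligase that targets IRS1, by 0.41 (adjusted p = 0.0215). Fbxo31 differed by -0.29 (adjusted p = 0.0361) and Ubr2 by -0.37 (adjusted p = 0.0440), so both were lower. In trained muscle Stub1, the chaperone-linked ligase CHIP, was higher by 0.49 under the knockout label (adjusted p = 0.00317). Training in knockout muscle went with lower Fbxo30, at -0.49 (adjusted p = 0.0358). The list medians in the 4 comparisons were 0.03, 0.01, -0.10 and -0.14. Asb2, Stub1 and sedentary Fbxo30 were called in all 17 fits that left out 1 sample each. Fbxo40 was called in 12 of them, with an adjusted p of up to 0.0748 without knockout-sedentary library 5. Fbxo31 was called in 10 (up to 0.111 without vehicle-sedentary library 1) and Ubr2 in 8 (up to 0.136 without vehicle-sedentary library 5). The Fbxo30 difference with training was called in 7 (up to 0.304 without knockout-trained libraries 3 and 5). When only the 2 groups compared were fitted, Stub1 did not pass (edgeR adjusted p = 0.0644).

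FOXO regulators, 16 genes that include the insulin and AKT pathway, had 0 calls by edgeR in every comparison. In sedentary and trained knockout comparisons 3 and 5 of them had an unadjusted p under 0.05, DESeq2 called 1 and 3, and limma called 0. For training, 3 and 2 had an unadjusted p under 0.05 in vehicle and knockout muscle, DESeq2 called 0 and 1, and limma called 0. The list medians in the 4 comparisons were -0.08, -0.11, -0.11 and -0.18.

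Among 20 FOXO targets, 5 were higher and 1 lower in sedentary muscle labelled knockout, and 2 were higher and 2 lower in trained muscle. Of all genes 6.97% and 8.7% were called in these comparisons. Cdkn1a, which encodes the cell cycle inhibitor p21, had the largest difference. It went from 8.97 ± 1.56 (SD, n = 5) to 121.7 ± 21.3 (SD, n = 5) scaled CPM in sedentary muscle, a log2 difference of 3.77 (edgeR adjusted p = 4.56e-09). In trained muscle it went from 9.59 ± 1.82 (SD, n = 4) to 131.9 ± 61.9 (SD, n = 3), a difference of 3.79 (adjusted p = 9.27e-08). Gadd45a, a stress gene, was higher by 0.81 (adjusted p = 0.000133) and 0.50 (adjusted p = 0.0320) in the same 2 comparisons. Sesn1, a stress-induced restraint on mTORC1, was higher by 0.42 in sedentary muscle (adjusted p = 0.0106). Sesn3 and Cdkn1b were also higher there, and are named only because they complete the count. Tsc22d3, better known as a glucocorticoid-induced gene, differed by -0.48 (adjusted p = 0.0319) and -0.73 (adjusted p = 0.00838), and Mstn, the muscle growth inhibitor myostatin, by -0.93 in trained muscle (adjusted p = 0.00136). With 1 sample left out, Cdkn1a in both comparisons, sedentary Gadd45a and Sesn1, and Mstn were called in all 17 fits. Trained Gadd45a was called in 12, with an adjusted p of up to 0.125 without knockout-trained library 2. The list medians were 0.01, 0.18, -0.05 and -0.04. Tsc22d3 was called in 11 fits for sedentary muscle (up to 0.105 without vehicle-sedentary library 1) and in 16 for trained muscle (0.0540 without knockout-trained libraries 3 and 5). When only the 2 groups compared were fitted, Tsc22d3 in trained muscle did not pass (edgeR adjusted p = 0.0584).

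Of 33 genes of the autophagy machinery, Wipi1, a lipid-binding protein of the forming autophagosome, was the 1 call, higher by 0.45 in trained muscle labelled knockout (edgeR adjusted p = 0.0173). In that comparison 8.7% of all genes were called. Wipi1 was called in 14 of 17 fits with 1 sample left out. Leaving out the joined knockout-trained libraries 3 and 5 gave the weakest values for Wipi1 (adjusted p = 0.0776), Pink1 (0.1025) and Phb2 (0.1255). Sedentary muscle had 0 calls, with 2 genes at an unadjusted p under 0.05 and 0 by DESeq2 and by limma. The machinery list had medians of 0.03, 0.04, -0.06 and -0.0045, and the receptor list 0.01, 0.13, -0.08 and -0.01. Of 13 autophagy and mitophagy receptors, Pink1 and Phb2 were higher in trained muscle labelled knockout, 2 calls beside 8.7% of all genes. Pink1, the kinase that marks damaged mitochondria, went from 498.4 ± 38.7 (SD, n = 4) to 668.3 ± 50.1 (SD, n = 3) scaled CPM, a difference of 0.43 (adjusted p = 0.0243, kept in 13 of 17 fits). Phb2, an inner-membrane mitophagy receptor, was higher by 0.42 with overlapping groups (adjusted p = 0.0213, kept in 12 of 17). Among 25 tested lysosomal genes there were 1 and 2 calls in the sedentary and trained knockout comparisons, beside 6.97% and 8.7% of all genes. Atp6v1a, a subunit of the proton pump, was higher by 0.43 in sedentary (adjusted p = 0.00317) and 0.37 in trained muscle (adjusted p = 0.0343, kept in 12 of 17, at most 0.08995 without knockout-trained libraries 1 and 4). The lysosomal list had medians of -0.02, -0.17, 0.04 and -0.06 in the 4 comparisons.

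**Figure D3:**
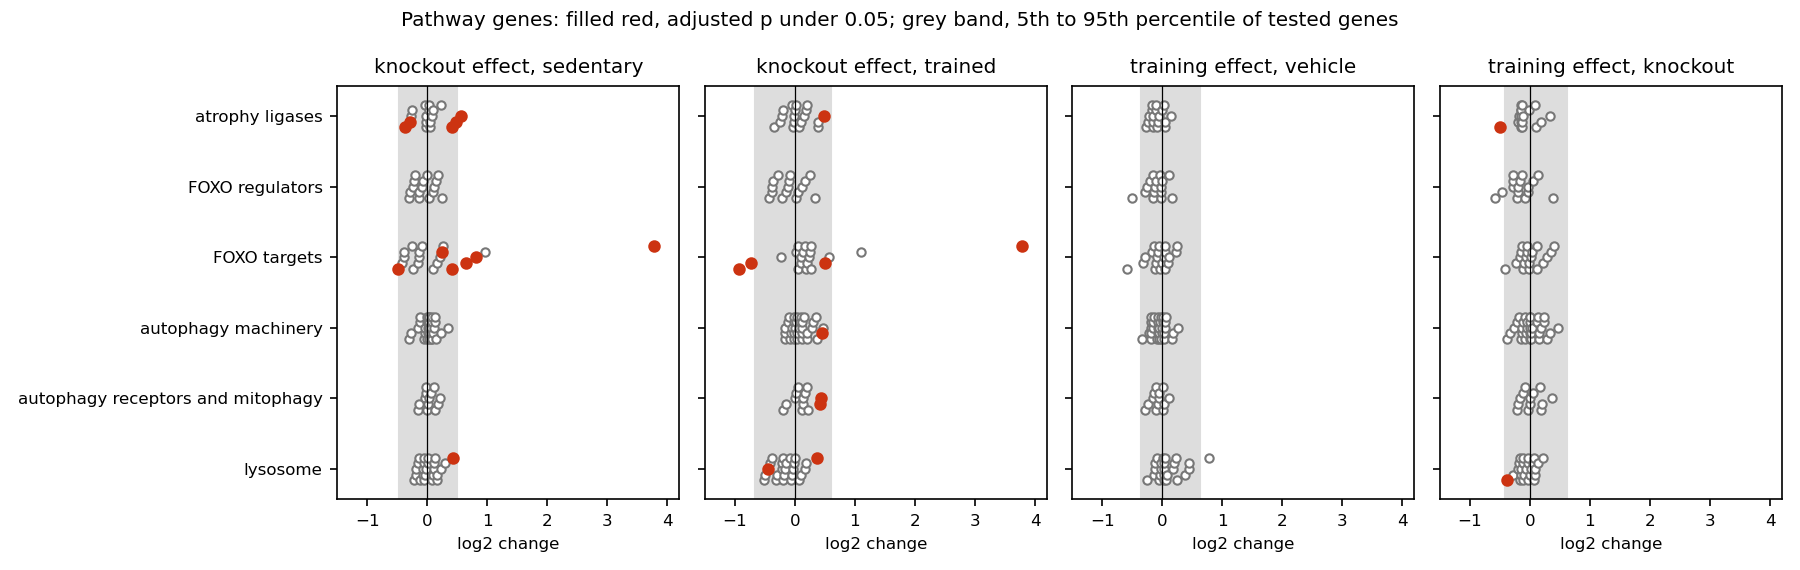
Log2 difference (horizontal axis) of each of 125 pathway genes in 4 comparisons, by list, with calls filled red and the 5th to 95th percentile of all tested genes as a grey band. Cdkn1a stands alone at 3.77 and 3.79 under the knockout label, and the vehicle training panel has no filled point.

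In vehicle-trained library 2 all 10 genes were higher than in every other sample. This is 1 library, so the values below describe it and carry no test. Over all tested genes, 11.4% were more than 2-fold above the mean of the other 4 vehicle-trained libraries and 14.6% were more than 2-fold below it. All 10 genes were more than 2-fold above. Their median log2 deviation was 2.68, where that of all tested genes was -0.08 and the 5th to 95th percentile ran from -1.60 to 1.51.

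Both ligases stood far above the remaining samples. Trim63 was at 6859 TMM-scaled CPM, against 326.9 ± 15.3 (SD, n = 4) in the other vehicle-trained libraries, a ratio of 20.98, and its deviation ranked 29 among the 14305 tested genes. Fbxo32 was at 3286 against 367.0 ± 24.8 (SD, n = 4), 8.96-fold and rank 100. Neither value came near the highest of the other 17 samples, 479.9 and 492.0. Foxo1 was at 409.2, 8.65-fold above 47.3 ± 1.91 (SD, n = 4) and rank 108, and Foxo3 at 156.5, 4.45-fold above 35.1 ± 2.98 (SD, n = 4) and rank 323. The 2 transcription factors were thus also high in the library where the ligases were high.

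Of the autophagy genes, Gabarapl1 was at 801.5 against 76.25 ± 5.05 (SD, n = 4), 10.5-fold. Bnip3 was at 2056, 6.27-fold, and Ctsl at 675.1, 6.64-fold. Ulk1 was at 288.5, 4.31-fold, Sqstm1 at 1961, 3.065-fold, and Map1lc3a at 411.7, 2.75-fold. Map1lc3a was the nearest to the remaining samples, at 2.05 times vehicle-trained library 1. On CPM without TMM scaling the folds ran from 2.55 to 19.4, where the TMM factor of this library was 0.92.

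**Figure D4:**
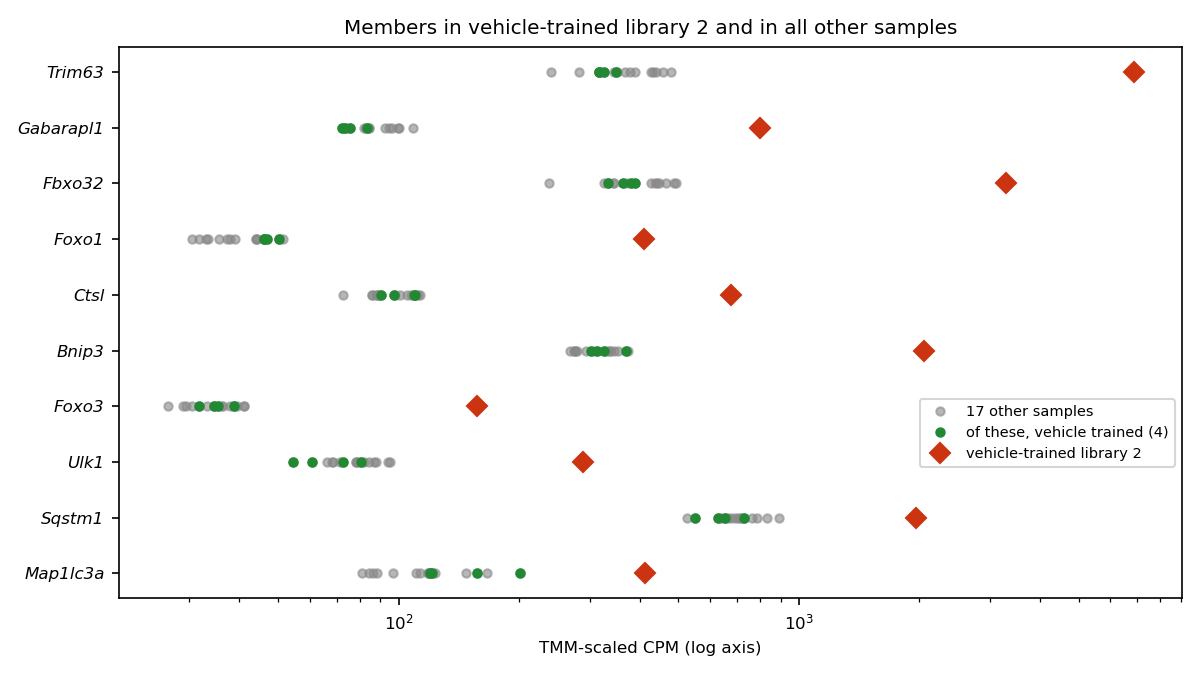
TMM-scaled CPM on a log axis of the 10 genes, ordered by fold, in vehicle-trained library 2 (red diamonds), in the other 4 vehicle-trained libraries (green) and in the other samples (grey). Every diamond lies to the right of all other points of its gene, from 411.7 against at most 201.0 for Map1lc3a to 6859 against at most 479.9 for Trim63.

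The wider pathways were uneven in this library. Of 20 FOXO targets 12 were more than 2-fold higher and 1 lower, with a median log2 deviation of 1.56. Cdkn1a was at 870.7 scaled CPM against 7.13 to 11.3 in the other 4, and Depp1, a FOXO-induced gene linked to autophagy, at 440.2 against 2.01 to 10.3. Bcl6, at 49.1 against 89.0 to 137.5, was lower. Of 16 regulators 7 were higher and 2 lower, with a median of 0.89. Irs2, the insulin receptor substrate that FOXO factors induce, was at 721.7 against 25.05 to 32.95, and Akt1 at 250.1 against 48.0 to 59.65. Foxo6 was at 0.503 against 5.89 to 7.34 and Sirt3 at 7.04 against 14.5 to 19.8.

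Among the 18 other ligases 5 were higher and 3 lower, with a median of 0.41. Fbxo30 was at 143.4 against 21.5 to 31.1, and Fbxo31 at 527.3 against 97.0 to 121.7. Trim55, the MuRF2 relative of Trim63, was lower, at 28.0 against 58.3 to 80.2, and so was Trim32, at 6.03 against 10.8 to 15.5. The 33 autophagy machinery genes had the lowest median of the 6 lists, 0.28, with 9 higher and 2 lower. Map1lc3b, the LC3 form most used as an autophagy marker, was at 786.3 against 124.5 to 164.9, and Gabarap at 391.1 against 99.25 to 141.6. Atg4c, at 1.80 against 7.82 to 9.50, and Atg101, at 16.7 against 33.2 to 41.4, were lower.

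Of 13 receptors 5 were higher and 1 lower, with a median of 0.90, and with Tollip at 278.8 against 53.6 to 57.1 and Nbr1 at 311.6 against 75.6 to 99.1. The mitophagy receptor Fundc1 was lower, at 15.5 against 30.3 to 36.5. Of 25 lysosomal genes 6 were higher and 1 lower, with a median of 0.43. Atp6v1h was at 159.0 against 19.8 to 25.45, and Ctss, a cathepsin of macrophages, at 36.9 against 6.36 to 18.6. Ctso was lower, at 7.11 against 12.2 to 19.17.

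**Figure D5:**
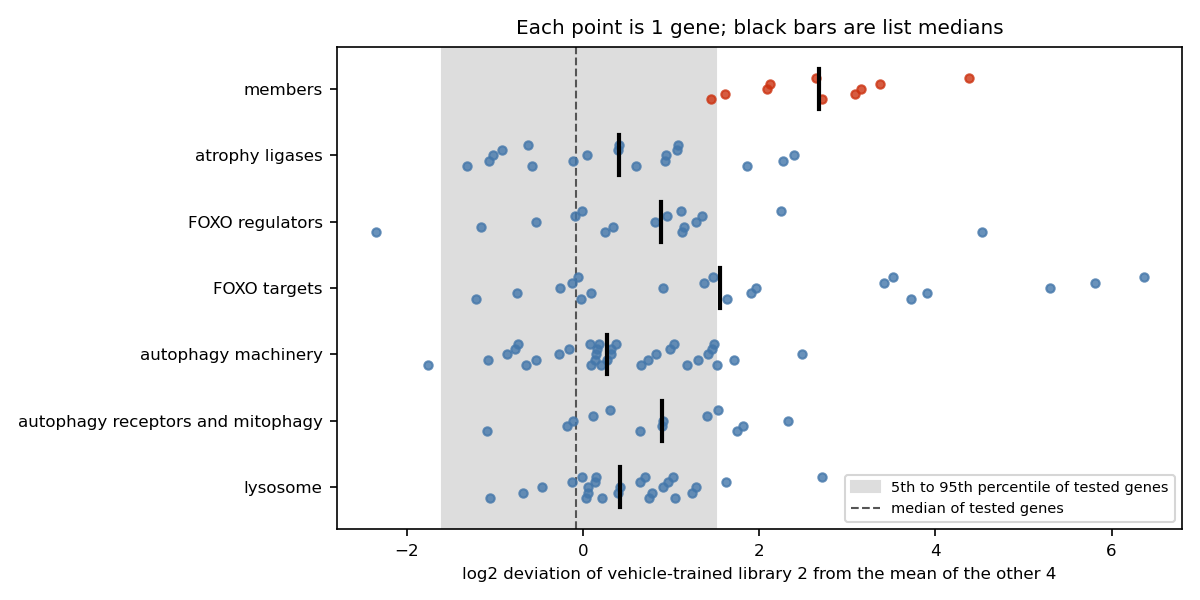
Log2 deviation of vehicle-trained library 2 from the mean of the other 4 vehicle-trained libraries (horizontal axis), with 1 point per gene for the 10 genes (red) and the 6 lists (blue), list medians as black bars and the 5th to 95th percentile of tested genes in grey. The 10 genes have a median of 2.68 and the FOXO targets 1.56, to the right of the other lists.

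Other cell types and the clock gene also stood apart in this library. Its 10 muscle fibre markers summed to 69140 scaled CPM, 0.767 of the mean of the other 4, with none at 0. Macrophage markers, 9 of 10 tested, summed to 519.2 against 182.4 to 438.8 in the other vehicle-trained libraries. Cd68, C1qa, C1qb, Mrc1 and Cd163 lay above all of the 17 other samples, and the rest of that list inside their range. Neutrophil markers, 0 of 5 tested, summed to 33.5 against 1.07 to 2.48, with S100a8 at 16.0 and no other sample of the 17 above 2.73. Adipocyte markers, 7 of 7 tested, summed to 186.6 against 246.3 to 1092, with Lep at 0. Most of this sum was Fabp4, at 139.2. Fabp4, Plin1 and Lep lay below all of the 17 other samples, and Adipoq, Cfd, Cidec and Retn inside their range. Fibroblast markers, 6 of 6 tested, summed to 3019 against 3268 to 5192. Pdgfra among them, at 90.7, lay above all of the 17 other samples. Col1a1 (7.69), Col3a1 (18.0) and Lum (21.0) lay below them, and Dcn and Gsn inside their range. Blood markers, 5 of 6 tested, summed to 559.3 against 622.9 to 2047. Satellite cell markers, 3 of 5 tested, summed to 30.7 against 17.01 to 23.1. Schwann cell markers, 5 of 5 tested, summed to 46.5 against 17.3 to 37.8. These sums rested mostly on Cdh15, at 24.1, and Mbp, at 29.3. Pax7 (0.575), Calcr (0.0718), Sox10 (0.287) and S100b (1.149) each lay below all of the 17 other samples. Cdh15 lay above them, and the rest of both lists inside their range. Endothelial markers, 6 of 6 tested, had a sum inside the range, at 179.7 against 155.3 to 196.7. Their members differed, with Pecam1, at 72.2, above all of the 17 and Kdr, at 15.01, below them. The rest of that list lay inside their range. Arntl was at 143.8 against 5.95 to 6.97, higher than in any sample labelled knockout. The part of these differences in the levels of the 10 genes was not tested.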

How the data were processed

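The authors deposited estimated counts per gene for 20 libraries of mouse hindlimb muscle, although the deposited table carries the name of CPM. Its columns sum to between 10610333 and 19153527, and 72.0% of its values are whole numbers. Per the submitters' processing notes, the tools named were STAR 2.7.8a, Partek and DESeq2 and the builds mm10 and GRCm39, with no role or order. The counting rule, annotation and strandedness are not given in the sources used here, so reads of a gene and of an overlapping gene or close copy cannot be told apart.

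Counts were rounded. All 190 pairs of libraries were compared with Poisson noise, and the 2 pairs below a limit of 1.5 times their own low-count noise, a limit set with the values known, were summed. Genes with at least 1 CPM in at least 5 libraries were fitted in 4 group means by edgeR 4.0.16 (R 4.3.3) with TMM scaling and a quasi-likelihood test. Vehicle-trained library 2 stayed out of the fit. Adjustment covered all 14305 genes per comparison. Levels are TMM-scaled CPM. Exon lengths came from GENCODE M21, and promoters from RefSeq (GRCm38.p6). The test was checked on simulated counts.

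The 10 genes, the pathway lists and the marker lists were chosen with earlier results of these data known. Named besides the 10 were the targeted gene, up to 3 called genes with the smallest p in each direction per list and comparison, 2 genes per list and direction in the library set apart, and the 3 most alike genes of Fbxo32, Trim63 and each called gene. 1 called pathway gene is not reported here.

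Alternatives were library 2 in the fit, every library separate, a replicate block, DESeq2 (1.42.0) size factors or test, limma (3.58.1), no filter, only the 2 groups compared, and each sample left out. Scaling by library totals alone was added after seeing the data. No clear pairing of samples by replicate number was seen, which does not exclude it.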

Additional observations from a re-analysis of the deposited data

Results flagged for a closer look

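A sample is listed here when its gap to the nearest other sample of its group exceeded Dixon's 95% critical value. Chance flags about 1 in 20 groups. Of 11 such values, 10 belong to vehicle-trained library 2, 1 for each of the 10 genes, and only restate that this library, already described on its own, stands apart. In the other 20 combinations of gene and group 1 value met it, which is the rate chance gives. In vehicle-trained library 2 the TMM-scaled CPM were 6859 for Trim63, 3286 for Fbxo32, 409.2 for Foxo1 and 156.5 for Foxo3. They were 801.5 for Gabarapl1, 2056 for Bnip3, 675.1 for Ctsl, 1961 for Sqstm1, 411.7 for Map1lc3a and 288.5 for Ulk1. The 1 value outside that library was Bnip3 at 308.9 scaled CPM in knockout-sedentary library 3. The remaining 4 samples of the group lay between 268.5 and 276.4.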

How the results depend on the processing

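Each of 72 results was recomputed under 9 settings and 17 removals of 1 sample, 1862 comparisons in all. Of these 22 reversed, 20 of them with vehicle-trained library 2 in the fit. Among the others 1697 kept their side of the threshold, 123 lost the call and 20 gained it, and these include 60 sign changes in which both values were smaller than their SE.

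Of the 10 genes, 1 was called in each of the knockout comparisons and in the training comparison of knockout muscle. With library 2 in the fit each count was 0. In sedentary muscle the count was 2 with every library separate, with DESeq2 size factors, with limma, with only the 2 groups and with library totals, 3 with the DESeq2 test, and 1 to 2 with 1 sample left out. In trained muscle it was 0 with only the 2 groups, 2 with every library separate, and 0 to 2 with 1 left out. For training in knockout muscle it was 0 with only the 2 groups, 2 with every library separate or with library totals, and 0 to 2 with 1 left out.

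With library 2 in the fit, the log2 knockout difference in trained muscle reversed to -0.31 for Sqstm1, -0.46 for Cdkn1a, -2.19 for Trim63, -0.56 for Ulk1, -1.30 for Gabarapl1, -1.08 for Gadd45a and -1.03 for Bnip3. The training difference in vehicle muscle reversed to 0.43 for Sqstm1, 1.33 for Fbxo32, 2.29 for Trim63, 0.54 for Ulk1, 1.44 for Gabarapl1, 0.65 for Foxo3 and 1.02 for Bnip3. The interaction reversed to -0.45 for Sqstm1, -0.067 for Map1lc3a, -0.72 for Ulk1, -1.51 for Gabarapl1, -1.285 for Foxo1 and -0.78 for Bnip3. With 1 sample left out, Trim63 ran from -0.12 to 0.12 for training in vehicle muscle and Map1lc3a from -0.17 to 0.13 for the knockout label in trained muscle. Removing or adding a library changes the samples fitted, and beyond that the cause was not tested.

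No clear pairing of samples by replicate number was seen. Of 27 same-numbered pairs, 12 had a correlation of deviations over 0.1 and 6 matched best with their own number. The correlations ran from -0.483 to 0.347, and without a reference value they cannot exclude pairing. With a replicate block and every library separate, 1, 3 and 1 of the 10 genes were called in the same 3 comparisons, the 3 being Ctsl, Foxo1 and Foxo3. Over all genes the block gave 976, 1936 and 163 calls.

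Over all genes the calls were 997, 1245 and 122, and 334, 473 and 0 with library 2. With every library separate the last 2 were 2046 and 513. The DESeq2 test called 685 for training in knockout muscle, 22 in vehicle muscle and 87 interactions, where edgeR called 0 of the last 2 kinds (1862 and 1635 at an unadjusted p under 0.05) and limma called 0. Limma called 76 for training in knockout muscle. With only the 2 groups there were 377 and 0 for the trained knockout comparison and training in knockout muscle. With 1 sample left out, the trained knockout count ran from 616 (without knockout-trained libraries 3 and 5) to 1476, with 719 without vehicle-trained library 4. The count for training in knockout muscle ran from 0 (without knockout-sedentary library 1, 2 or 3, or knockout-trained library 2 or 3 and 5) to 1760 (without knockout-trained libraries 1 and 4). Library totals put the median of all genes at -0.15 for training in knockout muscle and at -0.11 for the interaction. They changed the calls for training in knockout muscle from 101 higher and 21 lower to 45 and 293. Calls in the sedentary knockout comparison went from 449 and 548 to 556 and 451, and in the trained one from 718 and 527 to 481 and 653. Group sizes of 3 to 5 and the joined libraries limit the precision, and differences smaller than about the SE cannot be read.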
